A study of Mus musculus with 2 samples.

Results

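Tcf1 peaks were examined at 9 genes that encode integrin subunits: the alpha subunit genes Itgae, Itgal, Itga4, Itga6 and Itgav and the beta subunit genes Itgb1, Itgb2, Itgb3 and Itgb7. A deposited peak was assigned to a gene when its summit lay in the annotated gene body or within 50 kb of either end (mm9, GENCODE vM1). These windows held 44 of the 22286 deposited peaks. Of these, 39 met the study's limits (fold enrichment 4 or more, p below 1e-05, q below 0.05) and are called high-confidence peaks. That is 88.6% of the 44 peaks, beside 85.4% of all peaks in the list.

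The peaks come from 1 WT and 1 Tcf1-deficient ChIP-seq library of naïve CD8+ T cells sorted from mouse spleen (GFP+ TCRbeta+ CD62Lhi CD44lo-med CD8+), and the deposited list combines both, the second library serving as the control for the first. The WT sample is labelled wild type. The control is titled Tcf1-deficient and carries the genotype Tcf1-/-Lef1-/-. The series' design text describes hCD2-Cre and a Cre-dependent GFP reporter at Rosa26 in both groups, with Tcf1 and Lef1 either intact or floxed, whereas the study's methods name Cd4-Cre+ Tcf7 fl/fl mice on a C57BL/6 background as the source of the control cells. The sources thus differ on whether the control cells also lacked Lef1, and the labels give no age or sex. Per the methods, the mice of the study were young adults of both sexes, and the sex behind each library is not given in the sources used here. Cd4-Cre deletes in the thymus, whereas the study describes hCD2-Cre as acting mainly in mature peripheral T cells, so the stage at which Tcf1 was lost also differs between these sources. The antiserum was raised in rabbits against full-length recombinant Tcf1. Kept fragments numbered 36938606 in the WT library and 27625250 in the control. With 1 library per group there was no replicate check, peaks are not replicates, and the caller's p compares 2 libraries. Poisson and binomial intervals given below are 95% intervals that cover counting error only.

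Integrins are heterodimeric adhesion receptors, each made of an alpha and a beta chain, and they bind ligands on other cells or in the matrix once intracellular adaptors such as talin and kindlin have switched them to a high-affinity state. In T cells, Itgal and Itgb2 encode the chains of LFA-1, which binds ICAM ligands during lymph node entry and synapse formation. Itga4 pairs with Itgb1 or Itgb7 to bind VCAM-1 and MAdCAM-1, and Itgae pairs with Itgb7 to bind E-cadherin on epithelium. Tcf1, encoded by Tcf7, is an HMG-box transcription factor that binds a short Tcf/Lef core sequence.

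The sequences around the strongest high-confidence summit of the 5 integrin windows where fold enrichment reached 16.8 or more are shown because each has the largest fold enrichment of its locus. Each run is the 201 bases centred on the summit, read 5′ to 3′ from mm9. Capitals mark a Runx core (TGTGGTT) or one of 4 Tcf/Lef words on either strand, namely the exact core ATCAAAG and the related words TTCAAAG and AACAAAG and TACAAAG. The Gata core is not marked. Read from the other strand, the Runx core is AACCACA, the exact Tcf/Lef core is CTTTGAT and TTCAAAG is CTTTGAA.
Itgae intron 1 (chr11:72907835-72908035, plus strand): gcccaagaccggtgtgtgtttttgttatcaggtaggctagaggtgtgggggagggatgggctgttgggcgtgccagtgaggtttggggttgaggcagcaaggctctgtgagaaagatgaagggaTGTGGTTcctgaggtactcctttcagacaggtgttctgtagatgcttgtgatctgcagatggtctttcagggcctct
Itga6 downstream (chr2:71704755-71704955, plus strand): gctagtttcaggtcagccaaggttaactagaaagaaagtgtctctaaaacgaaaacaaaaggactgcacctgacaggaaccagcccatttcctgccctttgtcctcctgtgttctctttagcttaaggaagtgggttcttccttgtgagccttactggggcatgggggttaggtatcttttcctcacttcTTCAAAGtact
Itgal upstream (chr7:134431566-134431766, plus strand): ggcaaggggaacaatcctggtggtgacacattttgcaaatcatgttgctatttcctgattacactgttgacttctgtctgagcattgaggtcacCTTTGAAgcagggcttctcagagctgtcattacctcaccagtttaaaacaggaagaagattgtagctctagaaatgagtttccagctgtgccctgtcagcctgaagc
Itgb3 intron 12 (chr11:104522494-104522694, plus strand): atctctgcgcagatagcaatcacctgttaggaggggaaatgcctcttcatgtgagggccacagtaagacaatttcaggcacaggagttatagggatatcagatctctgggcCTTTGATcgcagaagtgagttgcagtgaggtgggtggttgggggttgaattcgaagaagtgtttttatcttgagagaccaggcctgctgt
Itgb2 upstream (chr10:76983298-76983498, plus strand): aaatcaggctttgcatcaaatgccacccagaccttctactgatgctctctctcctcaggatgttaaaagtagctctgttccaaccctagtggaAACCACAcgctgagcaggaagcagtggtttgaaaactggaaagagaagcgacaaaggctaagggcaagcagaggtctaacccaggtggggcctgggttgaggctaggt

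Among these windows, the Itgae and Itgb2 summits carried a Runx core, 27 bp and 4 bp from the summit. The Itgb3 summit carried the exact Tcf/Lef core ATCAAAG, 14 bp away. The Itgal and Itga6 summits carried the related word TTCAAAG, 3 bp and 93 bp away. The other Itgal peak of fold enrichment 20 or more, not shown here, held no Runx core and none of the 4 Tcf/Lef words. In all, 3 of the 5 integrin peaks of that size held one of the 4 words. Among other high-confidence peaks of any size 28.3% held one, and 36.4% of those outside promoters. The share among other peaks of fold enrichment 20 or more was not computed. The next set shows the other integrin peaks with the exact core, in Itga4 and beside Itgb7, and the promoter peak of Itgal, the integrin gene with the strongest peak at its own promoter.
Itga4 intron 5 (chr2:79116582-79116782, plus strand): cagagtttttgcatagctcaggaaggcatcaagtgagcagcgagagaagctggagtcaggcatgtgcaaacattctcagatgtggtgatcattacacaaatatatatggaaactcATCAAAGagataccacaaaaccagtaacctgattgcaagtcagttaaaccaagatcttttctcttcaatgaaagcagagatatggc
Itgb7 upstream (chr15:102067623-102067823, plus strand): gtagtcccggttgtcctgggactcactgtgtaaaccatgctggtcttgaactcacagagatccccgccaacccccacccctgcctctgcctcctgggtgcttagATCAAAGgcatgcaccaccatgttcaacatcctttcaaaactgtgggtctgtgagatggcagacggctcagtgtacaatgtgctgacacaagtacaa
Itgal promoter (chr7:134439573-134439773, plus strand): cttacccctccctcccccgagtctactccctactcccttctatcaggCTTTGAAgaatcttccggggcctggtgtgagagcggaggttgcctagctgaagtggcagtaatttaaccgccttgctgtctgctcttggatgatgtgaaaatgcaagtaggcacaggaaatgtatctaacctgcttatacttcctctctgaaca

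The core lay 18 bp from the summit in Itga4 and 7 bp from the summit beside Itgb7. In the Itgal promoter the related word lay 50 bp from the summit. A word is a match of letters and was not tested as a site of binding.

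High-confidence peaks were found at 7 of the 9 integrin genes. Itgal had 7 peaks, Itga6 and Itgb3 had 6 each, and Itgae, Itga4, Itgb2 and Itgb7 had 5 each. Itgav and Itgb1 had 0. The exact Poisson intervals were 2.81 to 14.4 for the 7 peaks of Itgal and 1.62 to 11.7 for a count of 5, so these 7 genes could not be ordered by number. A count of 0 allows up to 3 peaks by the floor of 3 counts, and 3.69 by the exact interval. Over all 22350 protein-coding genes of the annotation, taken with the same 50 kb on each side, 66.5% of windows held at least 1 high-confidence peak and 33.5% held 0. The median was 1 peak (interquartile range 0 to 3, largest 92). A count of 5 exceeded that of 84.1% of the windows, a count of 6 exceeded 89.4%, and the 7 peaks of Itgal exceeded 92.9%. Windows differ in length with the gene, from 116 kb for Itgb7 to 213 kb for Itga6. Per 100 kb, Itgav and Itgb1 held 0 and the other integrin genes from 2.81 (Itga4) to 5.04 (Itgal), where the median over all windows, those at 0 included, was 0.973.

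**Figure D1:**
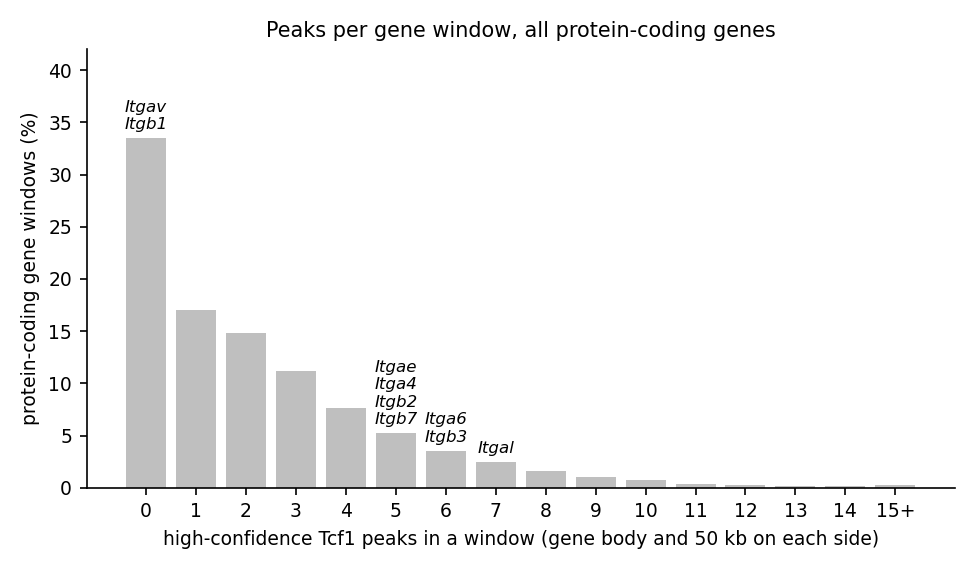
The bars give the percentage of all protein-coding gene windows (vertical axis) that held each number of high-confidence Tcf1 peaks (horizontal axis, gene body and 50 kb on each side), with the 9 integrin genes named above their own count. Itgav and Itgb1 stand at 0 with 33.5% of all windows, and the other 7 genes stand at 5 to 7.

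A peak of fold enrichment 20 or more was found in 4 of the 9 integrin windows (Itgae, Itgal, Itga6 and Itgb3), against 12.2% of all protein-coding gene windows. Only Itgae, and Itgb3 through an alternative start site, remained where the integrin's own start site had to be nearest, a count of 2. The 4 windows held 5 such peaks, because Itgal had a pair of them, which is 12.8% of the 39 integrin peaks beside 7.97% of the other high-confidence peaks. Their pileups, that is, the WT fragments that covered the summit, were 168 in Itgae (Poisson interval 144 to 195), 155 near Itga6 (132 to 181), 152 and 145 upstream of Itgal (129 to 178 and 122 to 171) and 135 in Itgb3 (113 to 160). These intervals overlap one another, so the order of the 5 peaks lies within counting error. The next integrin peak, upstream of Itgb2, had a pileup of 107 (87.7 to 129), an interval that overlapped those of the Itgb3 peak and both Itgal peaks but not those of the Itgae and Itga6 peaks.

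**Figure D2:**
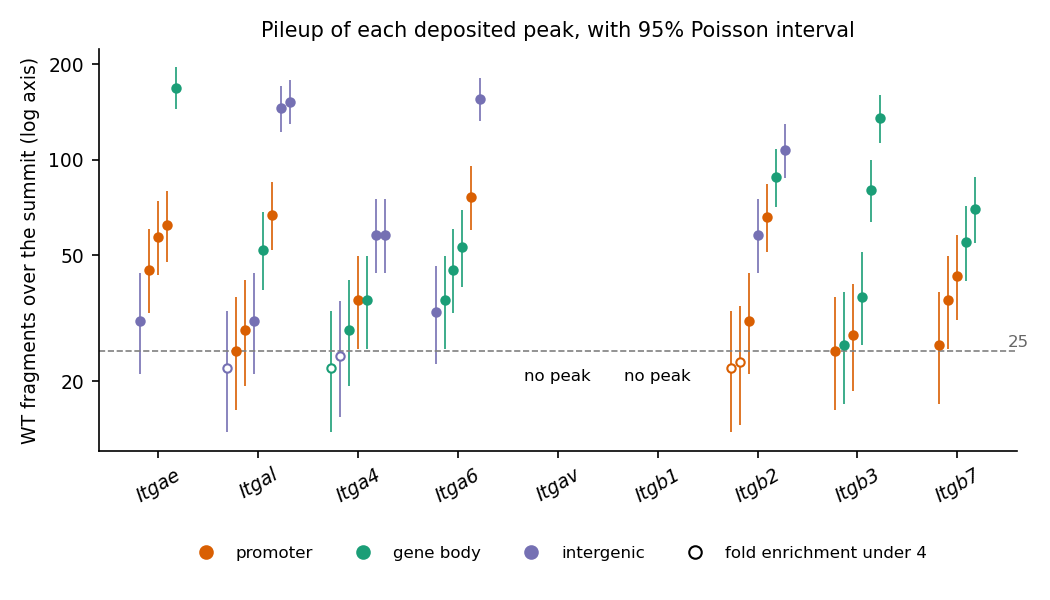
Each point is 1 deposited peak in an integrin window, with the WT fragments over its summit on a log vertical axis and the 95% Poisson interval as a bar. Colours give the placement, open points had a fold enrichment under 4, and the dashed line is the pileup of 25 that a fold enrichment of 4 required at the control floor. Itgae, Itgal, Itga6 and Itgb3 each have points at 135 fragments or more, and Itga4 and Itgb7 reach 58 and 70.

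Among the ligand-binding alpha chains, Itgae (ENSMUSG00000005947.5, chr11:72904085-72960948, plus strand) had the peak with the largest fold enrichment of the integrin set. It lay in intron 1 of 30, 3.85 kb downstream of the start site, at chr11:72907678-72908654. Its fold enrichment was 26.3, rank 813 of the 19042 high-confidence peaks. This is the site shown above with the Runx core. A second peak nearest to the Itgae start site, 6.11 kb upstream with a fold enrichment of 4.99, also carried a Runx core, 32 bp from its summit. No peak was called at the Itgae promoter. The other 3 peaks of the window lay in promoters of neighbouring genes, with fold enrichments of 5.99 to 9.82: Gsg2, which lies within Itgae intron 26, 1200014J11Rik, and Tax1bp3 with Tmem93.

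Itgal, the alpha chain of LFA-1 (ENSMUSG00000030830.11, chr7:134439774-134478651, plus strand), differed from Itgae in that its strongest peaks lay upstream of the gene. No high-confidence summit lay within the Itgal gene body. The promoter peak, 0.101 kb upstream of the start site, had a pileup of 67 (51.9 to 85.1) and a fold enrichment of 10.6. Further upstream, peaks of fold enrichment 22.7 (chr7:134431059-134431980) and 21.8 (chr7:134428549-134429140) lay 8.11 and 11.0 kb from the start site. Their summits were 2.86 kb apart. Both were intergenic and nearer to the start site of Gm17511 (1.66 and 1.20 kb) than to that of Itgal. At the more distant of the pair the control level was 6.02 fragments, above the floor of 5.42. The other 4 peaks had fold enrichments from 4.05 to 8.26, and the start sites nearest to them were those of Dctpp1 (2 peaks), Sephs2 and Zfp747.

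Itga4, the alpha chain shared by the receptors for VCAM-1 and MAdCAM-1 (ENSMUSG00000027009.11, chr2:79095583-79173280, plus strand), had 5 peaks of moderate signal and all 5 were nearest to its own start site. Paired intergenic peaks lay 27.4 and 24.0 kb upstream, each with a pileup of 58 (44.0 to 75.0) and a fold enrichment of 9.19. The promoter peak had a pileup of 36 (25.2 to 49.8) and a fold enrichment of 5.76, and a peak in intron 3 had the same values. The peak with the core, in intron 5 of 28 (chr2:79116566-79116808), was the weakest of the 5, with a pileup of 29 (19.4 to 41.6) and a fold enrichment of 4.67. Its interval reaches below the pileup of 25 that the fold minimum required.

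Itga6, an alpha chain of laminin receptors (ENSMUSG00000027111.8, chr2:71583673-71696473, plus strand), had 6 peaks, and its strongest lay beyond the 3′ end of the gene. That peak (chr2:71704481-71705207) had a fold enrichment of 24.3, lay 79.8 kb downstream of the start of transcript Itga6-001, and was intergenic, 6.43 kb from the start site of Pdk1. The Pdk1 promoter itself held a peak of fold enrichment 12.0. Inside Itga6, peaks in intron 1 had fold enrichments of 7.17 and 8.41, with summits 0.943 kb apart. A peak in intron 20, with a fold enrichment of 5.76, carried a Runx core 25 bp from its summit. No peak was called at the Itga6 promoter.

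Itgav, the alpha chain of receptors for RGD-containing matrix proteins (ENSMUSG00000027087.5, chr2:83564554-83647073, plus strand), had 0 peaks, deposited or high-confidence, within 50 kb. The nearest high-confidence peak lay 80.0 kb from the gene, with a fold enrichment of 7.70, and Zc3h15 had the start site nearest to it. Itgb1, the beta chain with the widest range of alpha partners (ENSMUSG00000025809.8, chr8:131209554-131257100, plus strand), also had 0 peaks, and here the nearest one lay 194 kb away, had a fold enrichment of 4.36 and was nearest to Nrp1. The genome sequence had 0 unknown bases in either window. It held 36 copies of ATCAAAG in the Itgav window and 34 in the Itgb1 window. Per 100 kb that was 19.7 copies for Itgav and 23.0 for Itgb1, beside 14.7 (Itgae) to 23.1 (Itga4) in the windows with peaks. Why the Itgav and Itgb1 windows held no peak was not tested. Over the 9 windows 263 copies of ATCAAAG were found, and 3 of them (1.14%) lay within 100 bp of a high-confidence summit. The Runx core occurred 462 times, 5 of them (1.08%) near a summit. The share of all window bases that lay so close to a summit was not computed, so neither share can be read as high or low.

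**Figure D3:**
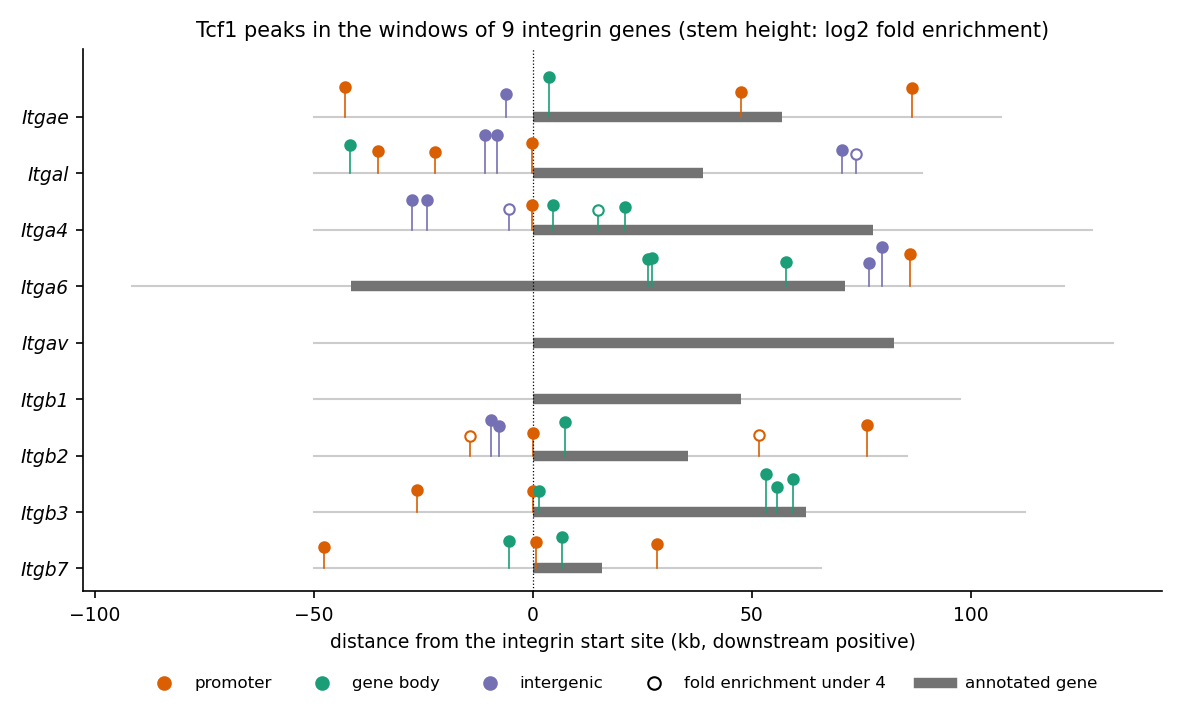
Each row is 1 integrin gene drawn in its direction of transcription, with distance from the start site in kb on the horizontal axis, the annotated gene as a thick bar and the 50 kb windows as thin lines. Stems are deposited peaks, their height the log2 fold enrichment and their colour the placement, and open points had a fold enrichment under 4. The tallest stems lie in intron 1 of Itgae, 8.11 and 11.0 kb upstream of Itgal, 79.8 kb downstream of the Itga6 start and near the 3′ end of Itgb3, and the rows of Itgav and Itgb1 are empty.

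Among the beta chains, Itgb2, the partner of Itgal (ENSMUSG00000000290.7, chr10:76992997-77028453, plus strand), had 5 peaks. The strongest (chr10:76983121-76983715) lay 9.60 kb upstream, between Itgb2 and 1810008A18Rik, with a fold enrichment of 16.8 and the Runx core 4 bp from the summit. Its neighbour at 7.74 kb upstream had a fold enrichment of 9.19. Both were nearer to the start site of 1810008A18Rik (4.84 and 6.70 kb) than to that of Itgb2. At the Itgb2 promoter a peak over exon 1 had a pileup of 31 (21.1 to 44.0), a fold enrichment of 4.56 over a control level of 6.02, and a Runx core 47 bp from the summit. A peak in intron 1 reached 13.9, and the promoter of Sumo3 held a peak of 10.4. Itgal, Itgb2 and Itga4 each had a promoter peak and high-confidence intergenic peaks further upstream with a larger fold enrichment. At Itga4 the pileup intervals of the promoter peak (25.2 to 49.8) and the upstream pair (44.0 to 75.0) overlapped. At Itgb2 those of the promoter peak and the nearer upstream peak met at 44.0. Itgb3 and Itgb7 had a promoter peak and no high-confidence intergenic peak. How many other genes share this arrangement was not counted.

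Itgb3, the partner of Itgav in the vitronectin receptor (ENSMUSG00000020689.3, chr11:104469370-104531790, plus strand), had its strongest signal near the 3′ end of the gene. The peak in intron 12 of 14 (chr11:104522235-104523115) had a fold enrichment of 21.2 and carried the core. Its summit lay 53.2 kb downstream of the start of transcript Itgb3-001. The start site nearest to it was another one annotated for Itgb3, 23.9 kb away. The intron 12 peak was followed within the gene by a peak in intron 13 (5.92) and a peak in the last exon, 15 of 15. The last-exon peak (pileup 80, 63.4 to 99.6, fold enrichment 12.6) held a related word 18 bp from its summit. The intron 13 and last-exon peaks were nearest to the start site of Gm11639, 21.8 and 18.1 kb away. The promoter peak of Itgb3 was at the fold minimum, with a pileup of 25 (16.2 to 36.9) and a fold enrichment of 4.05, and a peak 1.35 kb downstream had 4.21. The peak at the promoter of Myl4 had 4.52.

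Itgb7, the beta chain shared by Itgae and Itga4 (ENSMUSG00000001281.3, chr15:102046426-102062366, minus strand), is the shortest of the 9 genes (15.9 kb) and had no peak of fold enrichment 20 or more. The strongest lay in intron 2, with a pileup of 70 (54.6 to 88.4) and a fold enrichment of 11.1. The promoter peak, 0.854 kb downstream of the start site, had a pileup of 43 (31.1 to 57.9) and a fold enrichment of 6.86. The peak with the core (chr15:102067530-102067927) lay 5.36 kb upstream, in an intron of the neighbouring gene Rarg, with a fold enrichment of 7.29 against a control level of 6.69. Peaks at the promoters of Zfp740 and Mfsd5 had fold enrichments of 5.76 and 4.21.

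The fold minimum split a continuous range. Just inside it were the promoter peak of Itgb3 and the Sephs2 promoter peak near Itgal, both at 4.05 with a pileup of 25. Just outside were 5 peaks with fold enrichments of 3.58 to 3.90 and pileups of 22 to 24, of which Itga4 and Itgb2 had 2 each and Itgal had 1. Of the 39 integrin peaks 8 were no more than 1 Poisson SD from the minimum (20.5%, beside 20.4% of the other high-confidence peaks), so their side of it is within counting error. The control level was at the floor at 35 of the 39, and there the fold enrichment was set by the WT pileup alone.

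By size, the integrin peaks resembled the rest of the list. Their median fold enrichment was 7.29 (binomial interval of the median 5.76 to 9.82), beside 6.86 for the other 19003 high-confidence peaks, a value inside that interval. Median pileup was 52 beside 44 fragments, median width 507 beside 484 bp. Promoters, taken as 1 kb on each side of any annotated start site, held 15 integrin peaks (38.5%, Wilson interval 24.9 to 54.1), beside 39.6% of the others. Of these 15, 5 lay at the promoter of an integrin gene (Itgal, Itga4, Itgb2, Itgb3 and Itgb7) and 10 at the promoters of neighbours. Promoter peaks had a median fold enrichment of 5.76 and none exceeded 12.0, whereas the 24 distal peaks had a median of 8.80 and reached 26.3. Among the other peaks these medians were 6.54 and 7.17. The nearest protein-coding start site was that of the integrin for 19 of the 39 peaks and that of another gene for 20, with median fold enrichments of 7.17 and 8.65. A peak's target gene was not measured.

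Few integrin peaks held an exact core. ATCAAAG was found within 100 bp of 3 of the 39 summits (7.69%, Wilson interval 2.65 to 20.3), beside 10.2% of the other high-confidence peaks, and in 1 of 78 windows of the same size taken 2 kb to each side of the integrin summits (1.28%). The Runx core was found at 5 summits (12.8%, 5.60 to 26.7), beside 15.5% of the others and 2.56% of the integrin flanks (0.706 to 8.88). Both summit intervals include the share of the other peaks, and each overlaps the interval of its flanks. All 3 core peaks were distal, as were 1550 of the 1937 other high-confidence peaks with the core. Of the 5 Runx peaks 1 was at a promoter (Itgb2). Both cores were found at 0 of the 39 integrin summits and at 277 of the 19003 others. With any of the 4 Tcf/Lef words counted, which include the core, the share was 28.2% (11 peaks at 6 genes), beside 28.3% of the others and 15.4% of the integrin flanks. The ETS core (CGGAAGT), the Gata core (AGATAA) and the AP-1 core (TGANTCA) were found at 1, 3 and 2 integrin summits. The shares were 2.56% for ETS beside 6.94% of the other peaks, 7.69% for Gata beside 7.42%, and 5.13% for AP-1 beside 6.37%. In the integrin flanks they were 0, 6.41 and 10.3%, so Gata and AP-1 words were about as frequent beside these summits as at them, within their counting intervals. Windows of the same length were also taken around the 69976 distinct start sites annotated for protein-coding genes. They held the Tcf/Lef, Runx, ETS, Gata and AP-1 cores in 1.84, 3.01, 6.00, 5.44 and 4.03% of cases. All words were searched on both strands.

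**Figure D4:**
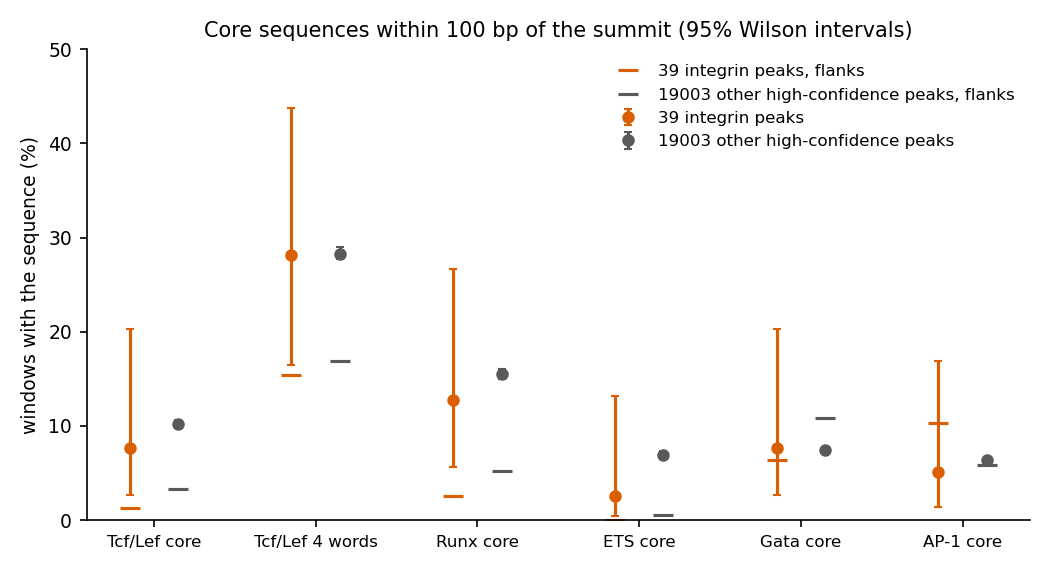
Points give the percentage of 201-base windows centred on summits (vertical axis) that held each sequence (horizontal axis), with 95% Wilson intervals, for the 39 integrin peaks and the 19003 other high-confidence peaks, and dashes give the share in the windows 2 kb to each side. For each sequence the wide interval of the integrin peaks includes the value of the other peaks, 7.69 beside 10.2% for the Tcf/Lef core and 12.8 beside 15.5% for the Runx core.

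Other genes of integrin function were counted in windows built the same way, which grow with the gene. These counts stand beside 66.5% of all protein-coding windows with a high-confidence peak and 12.2% with one of fold enrichment 20 or more. Of 13 further alpha chain genes 12 had a high-confidence peak, and 2 had a peak of fold enrichment 20 or more: Itga9 (33.0, in the gene body, 7.37 kb from its nearest start site) and Itga7 (28.8, nearest to Olfr9). Of 4 further beta chain genes 3 had a peak and none reached 20. Among 22 genes of integrin activation and adaptor function, 19 had a peak, with a median of 7 per gene beside 5 for the 9 integrin genes, and 7 had a peak of 20 or more. Ptk2b, a kinase of the focal adhesion kinase family, reached 53.4, and the adaptor genes Fyb and Skap1, which link the T cell receptor to integrin activation, reached 26.9 and 23.1. Cd47, an integrin-associated membrane protein, reached 23.9. In the windows of Cyth1 (30.1), Rap1a (28.5) and Ilk (23.7) the strongest peak was nearest to the start site of another gene, Usp36, Ddx20 and Taf10. Of the talin genes, Tln1 had 4 peaks (largest fold enrichment 15.9) and Tln2 had 0, and of the kindlin genes, Fermt3 had 7 (13.7) and Fermt1 and Fermt2 had 0. The strongest peaks of the Tln1 and Fermt3 windows were nearest to the start sites of Sit1 and Dnajc4. Of 6 ligand genes 4 had a peak, and Cdh1, which encodes the Itgae ligand E-cadherin, had a peak of 28.2 in its gene body.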

How the data were processed

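Tcf1 ChIP-seq of 1 WT and 1 Tcf1-deficient library was analysed from the deposited peak list. The authors aligned reads to mm9 with Bowtie2 version 2.2.5, and per the file headers called peaks with MACS2 version 2.1.1.20160309 at a p limit of 1e-05. The deposited pileup is a signal, the WT fragment coverage at the summit in whole numbers. The deposited fold enrichment is a ratio, pileup plus a pseudocount of 1 over the control level plus 1. The deposited −log10 p and −log10 q-value columns hold the caller's own comparison of the libraries and were used for the high-confidence limits taken from the study. The header says that q was not calculated, yet the list gives a q for each peak, and these were used as deposited. Control levels were computed back from pileup and fold enrichment, and were never below 5.42 fragments in the integrin windows.

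Peaks were placed on the NCBIM37 genome and GENCODE vM1 with Python 3.11.15, numpy 2.4.6, pandas 2.3.3 and scipy 1.17.1, which gave exact Poisson, Wilson and binomial intervals, and the counting was tested on simulated data. Core words were searched within 100 bp of summits. Gene tables of another build supplied neither coordinates nor sequence. No test between groups was run, since each has 1 library. All 9 integrin genes were named, with each locus' strongest peak, own promoter peak and peaks with the Tcf/Lef core. From the lists of other integrin genes, activation genes and ligands, genes with a peak of fold enrichment 20 or more were named, up to 10, and talin and kindlin genes were named after their values were seen. Members and lists were chosen with earlier results of these data known. Alternatives varied the fold and q limits, window, promoter width, search distance and words.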

Additional observations from a re-analysis of the deposited data

How the results depend on the processing

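Of 45 alternatives over 6 results, 36 left the value within its counting error or, for a count, within 1.5 times, and 9 moved it. The count of 39 high-confidence integrin peaks became 19 with a fold minimum of 8, 25 with 10 kb on each side and 19 where the integrin's own start site had to be the nearest. The median fold enrichment of 7.29 became 11.1 with a fold minimum of 8, which removes the low peaks by construction. The promoter share of 38.5% became 24.0% with 10 kb on each side, where fewer neighbouring promoters are included. The Tcf/Lef core share of 7.69% became 28.2% with any of the 4 words, and the Runx core share of 12.8% became 28.2% within 200 bp of the summit. The 4 windows with a fold enrichment of 20 or more became 0 at a fold enrichment of 40 and 2 where the integrin's start site had to be the nearest. Itgal depended most on the window, with 2 peaks at 10 kb, 7 at 50 kb, 13 at 100 kb and 1 by nearest start site. Itgb1 had 0 under each of these, and Itgav had 0 except for 1 peak at 100 kb. No paired analysis was possible because each group has 1 library and the results come from no test. Depth limits the list at its lower end, where the lowest deposited pileup was 18 fragments.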

Other observations

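The values in this section were computed after the sequences had been seen. A run of 10 CA repeats, on either strand, lay within 100 bp of 4 of the 39 high-confidence integrin summits (10.3%, Wilson interval 4.06 to 23.6), beside 3.99% of the other high-confidence peaks and 1.28% of the integrin flanks. The 4 peaks were the more distant upstream peak of Itgal (fold enrichment 21.8), a peak in intron 1 of Itga6 (7.17), the intron 1 peak of Itgb2 (13.9) and the intron 2 peak of Itgb7 (11.1), which was the strongest of that gene. All 4 were distal, which is 16.7% of the 24 distal integrin peaks (Wilson interval 6.68 to 35.9), beside 5.39% of the other distal peaks. The CA run was chosen from these same sequences, so neither interval can show an excess over the other peaks.

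Repeated sequence was counted without a repeat annotation, as 20-base words of each 201-base window that occur over 10 times in mm9. At 29 of the 39 high-confidence integrin summits no word was that common. The share of common words was highest at the intron 1 peak of Itgb2, 74.2%, followed by the intron 1 peak of Itga6 (39.0%), the distant upstream peak of Itgal (35.2%) and the intron 3 peak of Itga4 (31.9%). Around the core words the sequence was mostly unique. At the core beside Itgb7, 3 of the 14 words that cover it were common, the most frequent with 163 copies, and at the other 7 integrin summits with a Tcf/Lef or Runx core 0 of 14 were. How reads that match several places were treated is not given in the sources used here, and the part of repeated sequence in these pileups was not tested.

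At Itgb3 the gaps between summits among the 3 peaks near the 3′ end were 2.64 and 3.64 kb, and the Itga4 upstream peaks were 3.42 kb apart.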
